A study of Mus musculus with 8 samples.

Results

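Cd274 and Pdcd1lg2 encode PD-L1 and PD-L2, the ligands of the inhibitory T cell receptor PD-1. The genes lie next to each other on mouse chromosome 19 and were examined in bone marrow-derived macrophages, phagocytes cultured from the marrow of C57BL/6 mice. Macrophages given IL-4 (interleukin-4, a type 2 cytokine) provided 4 libraries, and untreated macrophages provided 4. The labels call the samples of a group biological replicates and give no sex, age, IL-4 dose or treatment time, and do not state that each came from its own animal, so the p-values cover only the spread among these samples, which may be technical. The members are the plus-strand loci of the authors' merged annotation (mm9) that hold a protein-coding reference transcript inside a window of 120 kb on chromosome 19. They are 2 of 31020 loci, with 6 of 89219 transcripts. Cd274 (XLOC_013606) spans 29441928 to 29462584, and Pdcd1lg2 (XLOC_013607) spans 29485392 to 29551554, with a gap of 22.81 kb between them. The starts of their reference transcripts are 43481 bases apart in mm9, the same distance as between the RefSeq starts of Cd274 and Pdcd1lg2.

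PD-1 on a T cell dampens signals from the antigen receptor when it meets either ligand. PD-L1 is made by many cell types and is known to be induced by interferons, whereas PD-L2 is found mainly on macrophages and dendritic cells and is a known target of IL-4 through the transcription factor STAT6. IL-4 acts through the receptor chain Il4ra and Janus kinases, which activate STAT6.

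The 300 bases around each start site (250 before the start and 50 from the start on, plus strand, RefSeq, GRCm38.p6) are printed because the start region is where these neighbours can be compared base by base. Cd274 is taken from chr19:29367188-29367487 and Pdcd1lg2 from chr19:29410669-29410968. Capitals mark matches to 7 short motifs, which were searched on both strands.
Cd274: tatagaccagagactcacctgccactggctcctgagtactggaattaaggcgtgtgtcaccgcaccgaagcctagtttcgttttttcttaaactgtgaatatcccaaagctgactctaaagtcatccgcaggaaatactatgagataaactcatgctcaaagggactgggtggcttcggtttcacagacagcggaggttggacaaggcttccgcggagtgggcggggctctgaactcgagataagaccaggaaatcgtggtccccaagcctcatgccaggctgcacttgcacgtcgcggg
Pdcd1lg2: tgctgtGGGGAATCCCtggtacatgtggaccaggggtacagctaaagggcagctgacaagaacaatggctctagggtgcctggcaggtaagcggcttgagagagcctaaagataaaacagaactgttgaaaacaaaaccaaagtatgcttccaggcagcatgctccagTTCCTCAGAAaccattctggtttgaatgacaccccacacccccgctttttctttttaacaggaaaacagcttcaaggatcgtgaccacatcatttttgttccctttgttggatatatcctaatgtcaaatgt

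The Pdcd1lg2 window held TTCCTCAGAA from 82 to 73 bases before the start. These letters match TTC and GAA set 4 bases apart, the spacing to which STAT6 is known to bind, and 6.95% of 32851 mouse promoter windows of the same length held such a match. Its first 6 letters, read on the minus strand, also match GAGGAA, a PU.1 motif present in 28.3% of windows. From 244 to 235 bases before the start the window held GGGGAATCCC, a match on both strands to the NF-kB motif (GGG, any 5 bases, CC), which 50.8% of windows held. The Cd274 window held no match to these, and neither window held a match to the interferon-linked motifs GAS (TTC and GAA set 3 bases apart, 8.3% of windows) and IRF element (GAAA, any 2 bases, GAAA; 3.44%), to the AP-1 motif TGANTCA (7.81%) or to TATAAA (13.6%). The CG dinucleotide occurred 15 times in the Cd274 window and 3 times in the Pdcd1lg2 window, against a median of 7 over all windows. A match is a string of letters, and no binding was measured here.

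Pdcd1lg2 transcripts were nearly absent from untreated macrophages and plainly present after IL-4. The Pdcd1lg2 locus had 876, 1080, 981 and 960 counts in the IL-4 libraries and 8, 14, 25 and 16 counts in the untreated libraries. Every IL-4 library lay far above every untreated library. Scaled to the total count of each library (CPM), the level was 37.3 ± 3.19 CPM with IL-4 and 0.65 ± 0.322 CPM without (SD, n = 4 each). Pdcd1lg2 rose 62.2-fold, by 5.96 on the log2 scale (SE 0.20; Benjamini-Hochberg adjusted p = 3.833e-09 in edgeR's quasi-likelihood test). In the same test 51.8% of 13761 loci were called in either direction and 25.6% higher with IL-4, and the groups did not overlap at 50.2% of loci, so the call alone does not set Pdcd1lg2 apart. Its size was less common, since 1.05% of loci were called with a log2 fold change of at least 5, and Pdcd1lg2 ranked 90 of 13761 loci and 61 of 10797 protein-coding ones. The locus passed the count filter only through its IL-4 libraries, since the untreated ones were too low to meet it alone. With no filter on counts the log2 fold change was 5.97 (edgeR, adjusted p = 4.407e-12). Within the 4 replicate pairs the CPM ratio ran from 37.8 to 105, and the untreated counts, 63 in all against 3897 with IL-4, set how closely it could be measured. In bulk RNA, more cells with a transcript and more transcript per cell cannot be told apart.

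Cd274 could not be measured by the deposited counts. The locus had 0 counts in all 4 IL-4 libraries, and the untreated libraries had 0, 0, 0 and 1, which is below the floor of 3 counts per group, so no fold was computed. Of its 3642 exonic bases, 3614 (99.2%) lie within exons of the minus-strand locus of Plgrkt, which encodes a plasminogen receptor. A pair of Plgrkt isoforms in the authors' assembly carry an exon of 20861 bases, from 29441696 to 29462556, that covers 6 of the 7 Cd274 exons whole and 2677 of the 2705 bases of the last. The authors' isoform FPKM (fragments normalised to transcript length and library depth), which divide reads among overlapping transcripts, did give Cd274 a level. Scaled by the ratio of counts to FPKM at 1226 single-transcript loci without overlap, those FPKM correspond to 6616 reads with IL-4 and 5370 without. The same scaling gave Pdcd1lg2 5804 reads with IL-4 and 99 without, of which 67.1% with IL-4 and 63.6% without were counted. Pdcd1lg2 shares 33.5% of its exonic bases, all in its last exon, with the minus-strand non-coding locus A930007I19Rik.

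**Figure D1:**
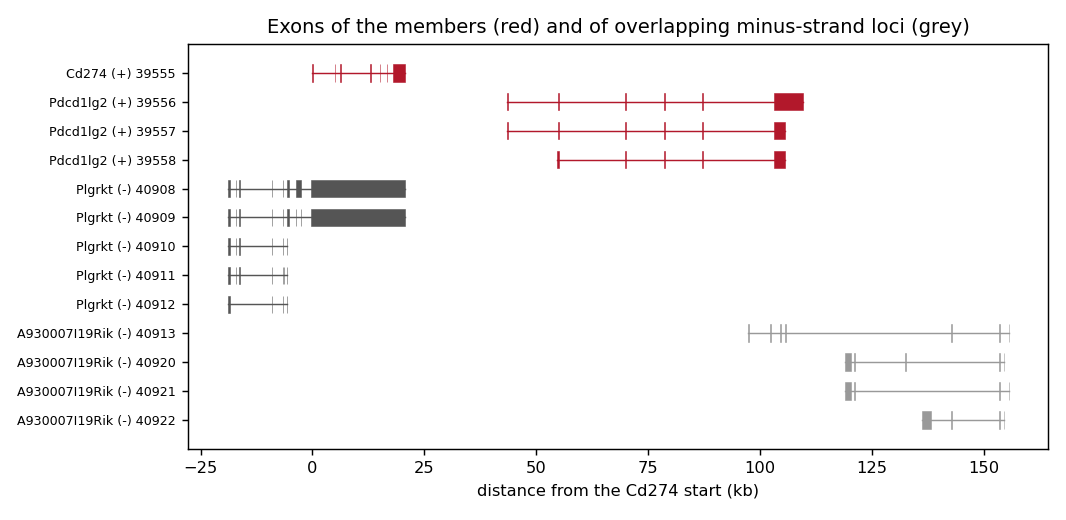
Exons (boxes) of the protein-coding isoforms of Cd274 and Pdcd1lg2 (red, plus strand), of all Plgrkt isoforms and of the reference isoforms of A930007I19Rik (grey, minus strand), by distance from the Cd274 start in kb, each labelled with strand and the last digits of its transcript number. The box of 20861 bases in the upper Plgrkt isoforms covers Cd274, of whose exonic bases 99.2% are shared.

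**Figure D2:**
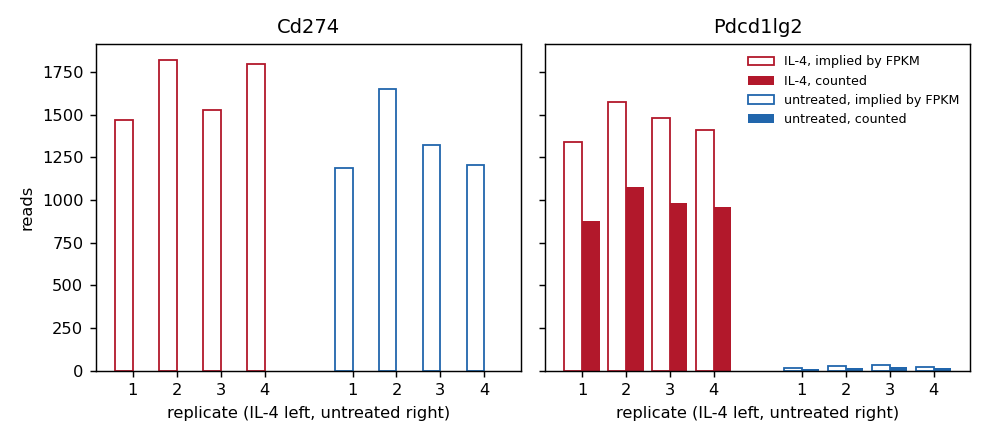
Reads implied by FPKM (open bars) and reads counted (filled bars) in each library, with the IL-4 libraries (red) left of the untreated ones (blue). Cd274 has between 1190 and 1824 implied reads in every library and 1 counted read in all, whereas Pdcd1lg2 has both in every library.

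By FPKM, Cd274 was present in both groups and differed little between them. Its summed isoform FPKM was 10.9, 12.7, 12.4 and 13.2 in the IL-4 libraries and 9.02, 11.4, 10.6 and 9.36 in the untreated libraries. The groups overlapped, with the lowest IL-4 library below the highest untreated one, but the IL-4 library was the higher of each replicate pair, by 1.11 to 1.41 times. The means were 12.3 ± 0.979 FPKM with IL-4 and 10.1 ± 1.1 FPKM without (SD, n = 4 each). The log2 fold change was 0.28 (SE 0.09, limma on log2(FPKM + 0.1), adjusted p = 0.02674), in a test that called 51.3% of 10946 loci in either direction and 25.9% higher with IL-4. The groups did not overlap at 48.5% of those loci. That call was lost without both replicate 4 libraries, the only pair with reads on the Y chromosome (5525 counts with IL-4 and 5808 without, against at most 7 in the other libraries), where the log2 fold change was 0.21 (adjusted p = 0.1496). It was also lost on leaving out any of untreated replicates 1 and 4 and IL-4 replicates 2, 3 and 4, with adjusted p between 0.05434 and 0.07038. The isoform split described below and the overlap with Plgrkt both enter this value, and their part in the difference was not tested.

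Per length, Pdcd1lg2 came close to Cd274 only after IL-4. Summed Pdcd1lg2 FPKM was 8.04, 8.69, 9.63 and 8.08 in the IL-4 libraries and 0.0782, 0.112, 0.129 and 0.0915 in the untreated libraries. The log2 fold change was 5.43 (limma, adjusted p = 2.879e-09), for a locus that passed the filter only through its IL-4 libraries. The Pdcd1lg2 level was 73.8%, 68.6%, 77.9% and 61.3% of the Cd274 level in the IL-4 libraries and 0.867%, 0.978%, 1.22% and 0.977% in the untreated libraries. By mean level the order was Cd274 with IL-4, Cd274 without IL-4, Pdcd1lg2 with IL-4 and Pdcd1lg2 without IL-4. The libraries of Cd274 overlapped between the groups, and Pdcd1lg2 in IL-4 replicate 3 (9.63 FPKM) lay above Cd274 in untreated replicates 1 and 4 (9.02 and 9.36 FPKM). Pdcd1lg2 without IL-4 lay apart below all of these. The log2 ratio of Pdcd1lg2 to Cd274 averaged -0.51 ± 0.15 with IL-4 and -6.64 ± 0.21 without (SD, n = 4 each), a difference of 6.13 (two-sided exact permutation test, p = 0.02857, the smallest that 4 against 4 libraries allow). Within pairs the ratio was higher with IL-4 in 4 of 4 (exact sign-flip permutation test, p = 0.125, the smallest that 4 pairs allow). The ratio does not depend on library size, and it was taken from FPKM because the counts of Cd274 gave none. Untreated Pdcd1lg2 FPKM rested on 15 to 34 implied reads in a library, divided among isoforms of unlike length (described below). The part of this division, and of the overlap of Cd274 with Plgrkt, in the size of the ratio was not tested.

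**Figure D3:**
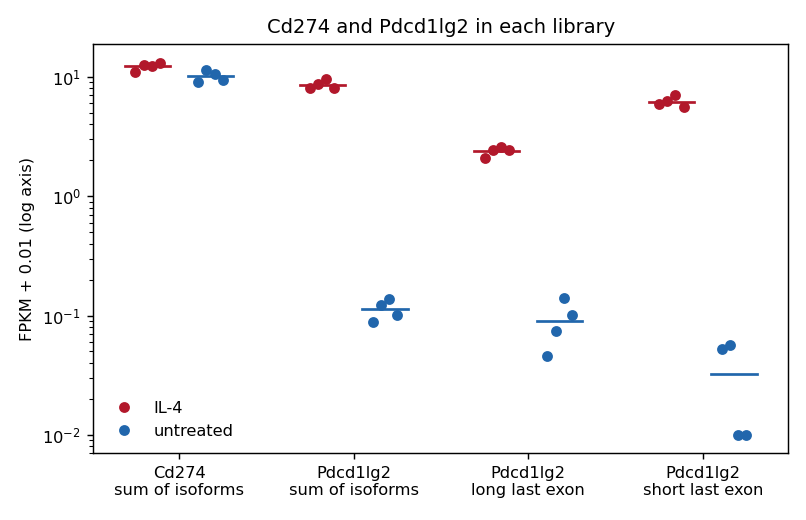
FPKM + 0.01 on a log axis for each library (points) with the group mean (line), IL-4 (red) left of untreated (blue), for the summed isoforms of Cd274 and Pdcd1lg2 and for the main Pdcd1lg2 isoforms. The Cd274 groups overlap between 10.9 and 11.4 FPKM, and the Pdcd1lg2 groups lie far apart.

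All but a trace of Cd274 FPKM belonged to the isoform identical to the reference, TCONS_00039555. It carried 99.6% ± 0.371 of the locus with IL-4 and 98.7% ± 0.978 without (SD, n = 4 each; exact permutation test, p = 0.1714, adjusted p = 0.2057 over 6 isoforms). Its FPKM was 10.8, 12.6, 12.3 and 13.2 in the IL-4 libraries and 8.8, 11.4, 10.5 and 9.19 in the untreated libraries. The log2 fold change was 0.30 (SE 0.10, limma, adjusted p = 0.04382), where 38.4% of 17500 isoforms were called in either direction and 19.8% higher. The assembled isoforms TCONS_00039553 and TCONS_00039554, of 3642 and 3640 bases against 3638 in the reference isoform, reached at most 0.218 FPKM in any library and did not pass the filter of at least 1 FPKM in at least 4 libraries. The call for TCONS_00039555 was lost with no filter (adjusted p = 0.1204), with quantile normalization (0.09226), and on leaving out any library except untreated replicate 2 and IL-4 replicate 1 (from 0.05873 to 0.1064).

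Pdcd1lg2 isoforms differ mainly in the length of the last exon, which starts at 29545006. TCONS_00039556, with a last exon of 6549 bases, had 2.09, 2.43, 2.57 and 2.42 FPKM in the IL-4 libraries and 0.0359, 0.0646, 0.129 and 0.0914 FPKM in the untreated libraries. TCONS_00039557, with a last exon of 2412 bases, had 5.95, 6.22, 7.03 and 5.63 FPKM in the IL-4 libraries and at most 0.047 FPKM in the untreated libraries. Both were higher in every IL-4 library than in any untreated one; the groups did not overlap for 38.9% of all isoforms tested. The log2 fold changes were 3.80 (SE 0.25, adjusted p = 8.65e-06) for the long and 5.71 (SE 0.22, adjusted p = 5.316e-07) for the short form (limma). On the log2(FPKM + 0.1) scale such values understate the change of low isoforms, and both passed the filter only through the IL-4 libraries, so they had to differ. TCONS_00039558, which starts further downstream at 29496549, reached at most 0.0354 FPKM and was not tested.

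In IL-4 libraries the short form carried 72.1% ± 1.9 and the long form 27.6% ± 1.76 of Pdcd1lg2 FPKM. In untreated libraries the short form carried 53.9%, 42.1%, 1.06e-16% and 0.0277%, and the long form 46%, 57.9%, 100% and 100%. The share was nearly constant among IL-4 libraries and scattered among untreated ones, where the whole locus had between 15 and 34 implied reads in a library. The short form's share differed by 48.1 percentage points (exact permutation test, p = 0.02857, adjusted p = 0.08571 over 6 isoforms), which did not pass the threshold. When only the isoforms that passed the filter were compared, the adjusted p was 0.02857. The long and short forms passed it only through the IL-4 libraries. Their shares then add up to the whole locus, so both give the same test, and nothing is drawn from it.

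As whole loci, the overlapping minus-strand loci moved little. Plgrkt had 83.6 ± 4.06 CPM with IL-4 and 103 ± 8.54 CPM without (SD, n = 4 each), a change of -0.19 on the log2 scale (SE 0.07; adjusted p = 0.0372, edgeR). Its summed FPKM changed the other way, with 35.8 ± 2.08 FPKM with IL-4 and 31.3 ± 1.03 FPKM without (log2 fold change 0.19, limma, adjusted p = 0.01799). Of the isoforms with the exon across Cd274, TCONS_00040908 was lower with IL-4 (1.23 ± 0.0901 FPKM, against 1.77 ± 0.175 without). Its log2 fold change was -0.48 (limma, adjusted p = 0.01729), while TCONS_00040909 reached at most 0.14 FPKM and was not tested. The most abundant reference isoform, TCONS_00040910, was higher (31.3 ± 1.78 FPKM with IL-4, against 26.2 ± 1.05 without). Its log2 fold change was 0.26 (limma, adjusted p = 0.008209). Of the less abundant reference isoforms, TCONS_00040911 fell (-0.93, limma, adjusted p = 0.02179) and TCONS_00040912 rose (1.19, limma, adjusted p = 0.0108). The count-based fall of Plgrkt was lost with RLE factors (adjusted p = 0.05642), with no filter (0.07481), with DESeq2 (0.07469) and on leaving out any library except untreated replicate 1 and IL-4 replicate 4. A930007I19Rik rose slightly, with 8.64 ± 1.02 CPM with IL-4 and 7.2 ± 1.16 CPM without (log2 fold change 0.37, edgeR, adjusted p = 0.03613), and this call was lost without both replicate 4 libraries (0.18, adjusted p = 0.2308) and on leaving out any of untreated replicates 2 and 4 and IL-4 replicates 1, 3 and 4 (0.05487 to 0.09155).

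Within 500 kb of the members lay 21 other loci, of which 12 passed the count filter. Of these 6 rose, 1 fell and 5 did not pass the test, with a median log2 fold change of 0.21, against -0.02 over all tested loci. Of all tested loci 25.6% were called higher and 26.2% lower, 51.8% in all. The 12 include the overlapping loci A930007I19Rik, among those that rose, and Plgrkt, the only one that fell. The changes of the 12 ran from -0.19 to 0.88, well below that of Pdcd1lg2. The highest was a protein-coding locus with no paired symbol, XLOC_013605 (29326318 to 29387570), at 130 ± 16.2 CPM with IL-4 and 76.6 ± 9.15 CPM without (log2 fold change 0.88, edgeR, adjusted p = 3.301e-05). Rcl1, a ribosome biogenesis gene, rose by 0.67 (adjusted p = 0.0002715, edgeR). Ric1, which encodes a part of a Rab6 exchange factor and is the next plus-strand locus after Pdcd1lg2, rose by 0.45 (adjusted p = 2.657e-05, edgeR). Insl6, of the insulin and relaxin family, rose by 0.33 (adjusted p = 0.02032, edgeR), a call lost without untreated replicate 2 (0.05612) or 3 (0.05963), and the unnamed locus XLOC_014013 by 0.31 (adjusted p = 0.01382, edgeR; 0.05767 by summed FPKM, limma). The protein-coding loci Gm10136 (-0.11), XLOC_013600 (0.06), XLOC_014008 (-0.03) and 9930021J03Rik/Ranbp6 (0.10) did not pass the test by counts. By summed FPKM, XLOC_014008, which shares 78.75% of its exonic bases with other loci, was higher, at 23.8 ± 0.792 with IL-4 and 13.6 ± 0.993 without (SD, n = 4 each; log2 fold change 0.80, limma, adjusted p = 6.647e-06). Il33, which encodes the alarmin cytokine IL-33, and the relaxin gene Rln1 each averaged under 0.01 CPM in both groups and were not tested, and neither were Slc1a1, 1700018L02Rik, 4430402I18Rik and XLOC_013609. Plpp6, all of whose exonic bases are shared, had 0 counts in both groups and was not tested by counts. Its summed FPKM was 1.64 ± 0.132 with IL-4 and 2.07 ± 0.243 without (SD, n = 4 each; log2 fold change -0.32, limma, adjusted p = 0.03331).

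**Figure D4:**
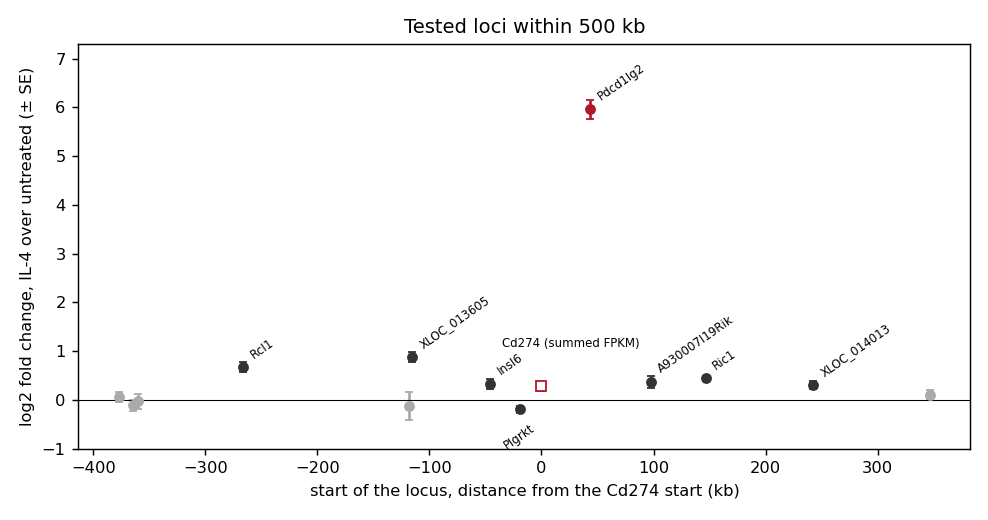
Log2 fold change (IL-4 over untreated) with its standard error for each tested locus within 500 kb, by the distance of the locus start from the Cd274 start in kb. Filled points come from counts (red for Pdcd1lg2, black for called, grey for not called and unlabelled), and the open square is Cd274 from summed FPKM. Pdcd1lg2 stands at 5.96, and the other counted loci lie between -0.19 and 0.88.

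Symbols of other genes were paired with loci by the spacing of neighbouring start sites, which gave 16 of 27 listed genes of the pathway. By counts 13 of the 16 were tested, of which 2 rose, 5 fell and 6 did not pass the test, with a median log2 fold change of -0.06 against -0.02 over all loci. Of all tested loci 25.6% were called higher and 26.2% lower, 51.8% in all, and the 7 of 13 called here are a share near that background. By summed FPKM 14 were tested, of which 2 rose and 6 fell, where 25.9% of all loci were called higher and 25.4% lower. Beside Pdcd1lg2, the member that rose most was Socs1, an inhibitor of cytokine receptor signalling. Socs1 had 34.1, 32.3, 31.7 and 21.8 CPM in the IL-4 libraries and 1.09, 0.562, 0.867 and 0.918 CPM in the untreated libraries, with no overlap (log2 fold change 5.23, SE 0.20, edgeR, adjusted p = 8.735e-09). The groups did not overlap at 50.2% of all loci tested by counts. The receptor gene Pdcd1 itself averaged 0.0282 CPM with IL-4 and 0.05 CPM without and was not tested.

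Among the other members of the B7 family, to which both ligands belong, the changes ran in both directions. Cd276 (B7-H3) rose, with 11.2, 14.7, 11.2 and 9.87 CPM in the IL-4 libraries and 2.38, 2.7, 3.12 and 3.55 CPM in the untreated libraries (log2 fold change 2.11, SE 0.16, edgeR, adjusted p = 9.907e-07). Icosl, the ligand of the T cell co-stimulator ICOS, fell, with 1.28, 1.19, 0.834 and 1.37 CPM in the IL-4 libraries and 10.4, 5.96, 7.41 and 8.64 CPM in the untreated libraries (log2 fold change -2.68, SE 0.22, edgeR, adjusted p = 1.945e-06). Neither gene's groups overlapped, which was also so at 50.2% of all loci tested by counts. Vsir, which encodes the inhibitory receptor and ligand VISTA, averaged 0.0187 CPM with IL-4 and 0.0389 CPM without and was not tested by counts; 87.4% of its exonic bases are shared with other loci. Its summed FPKM was 70.4 ± 7.3 with IL-4 and 118 ± 3.9 without (SD, n = 4 each; log2 fold change -0.75, limma, adjusted p = 3.1e-05). Vtcn1 averaged 0.0201 CPM with IL-4 and 0 CPM without and was not tested.

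Of 10 signalling genes tested by counts, 1 (Socs1) rose, 3 (Irf9, Irf1 and the Jak3 locus) fell and 6 did not pass the test, beside 25.6% of all loci called higher and 26.2% called lower. The locus paired with Irf9, a factor of type I interferon signalling, had 62.3 ± 2.78 CPM with IL-4 and 128 ± 12.3 CPM without (SD, n = 4 each; log2 fold change -0.94, SE 0.08, edgeR, adjusted p = 3.633e-06). That locus has 9143 exonic bases in 9 transcripts, and it may also hold a gene that was not paired. Irf1, a known activator of Cd274, had 1.735 ± 0.399 CPM with IL-4 and 3.03 ± 0.548 CPM without (SD, n = 4 each; log2 fold change -0.69, edgeR, adjusted p = 0.01228), and 54.2% of its exonic bases are shared. Irf1 fell by FPKM too, with 20.9 ± 2.48 with IL-4 and 36.1 ± 0.391 without (limma, adjusted p = 3.518e-05). Il4ra (log2 fold change -0.20), Stat6 (0.02, with 80.3% of its exonic bases shared), Jak1 (0.12), Tyk2 (-0.06), Ifngr2 (0.13) and Nfkb1 (0.15) did not pass the test. The locus of Jak3, a kinase of the IL-4 receptor, also holds Insl3 and changed by -0.54 (adjusted p = 0.00201, edgeR). Cmtm6, whose product is known to keep PD-L1 at the cell surface, had 182 ± 9.999 CPM with IL-4 and 257 ± 12.7 CPM without (log2 fold change -0.39, edgeR, adjusted p = 0.0005418). The 11 genes with no paired locus were Cd80, Rgmb, Cd86, Il2rg, Jak2, Ifngr1, Stat2, Stat3, Irf4, Rela and Cmtm4.

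**Figure D5:**
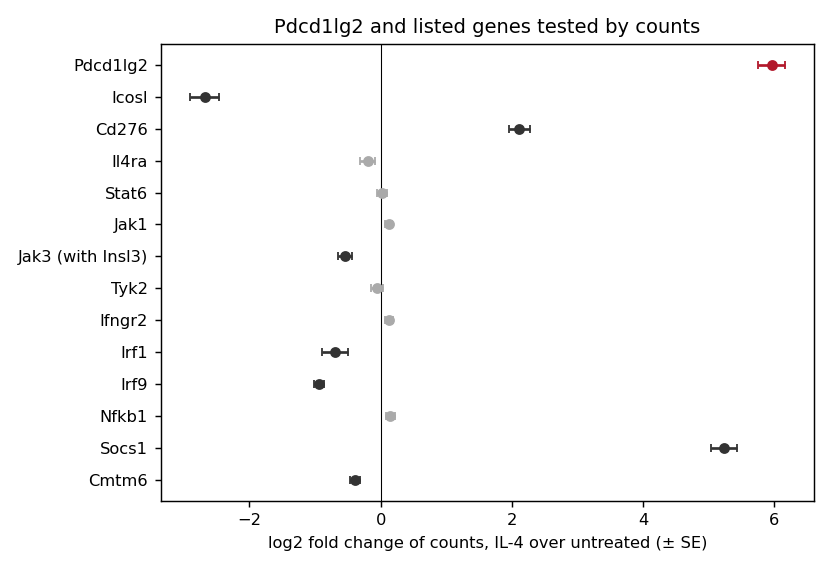
Log2 fold change of counts (IL-4 over untreated) with its standard error for Pdcd1lg2 (red) and the 13 listed genes tested by counts, black where the adjusted p is under 0.05 and grey otherwise. Pdcd1lg2 (5.96) and Socs1 (5.23) lie far to the right, and Icosl (-2.68) is the lowest.

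The macrophage label was checked with 4 of 6 markers that had a paired locus. Adgre1 (F4/80) had 1654 ± 291 CPM with IL-4 and 4584 ± 366 CPM without, and the locus that joins Lyz2 and Lyz1 had 12900 ± 3443 CPM with IL-4 and 28480 ± 5508 CPM without (SD, n = 4 each), so both were abundant in each group and lower with IL-4 (log2 fold changes -1.36 and -1.04, edgeR, adjusted p = 6.681e-06 and 0.001267). The locus that joins Itgam and Itgax was higher (1.44, edgeR, adjusted p = 1.386e-06), and the Fc receptor gene Fcgr1 was lower with IL-4 (6.24 ± 1.56 CPM, against 299 ± 43.1 CPM without; -5.47, edgeR, adjusted p = 3.951e-09). Of 10 markers of other cells, 5 had a locus, and their summed level ran from 10.5 to 13 CPM in IL-4 libraries and from 37.4 to 95.1 CPM in untreated libraries. Cd4 made up most of the untreated sum, with 1.5 ± 0.786 CPM with IL-4 and 57.2 ± 24.1 CPM without. Zbtb46, a dendritic cell marker that shares 62.13% of its exonic bases, rose to 3.54 ± 0.97 CPM with IL-4, against 0.861 ± 0.0946 CPM without (log2 fold change 2.13, edgeR, adjusted p = 2.058e-05), while Flt3 and Cd209a each averaged under 0.3 CPM in both groups and the neutrophil gene S100a8 did not pass the test (0.38, adjusted p = 0.136). The part of other cells in the values of Cd274 and Pdcd1lg2 was not tested.

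The tested loci whose CPM followed Pdcd1lg2 most closely over the 8 libraries were the unnamed loci XLOC_010104 on chromosome 16 (11778475 to 11781593), XLOC_004056 on chromosome 11 (115243230 to 115257446) and XLOC_018280 on chromosome 3 (87313883 to 87315410), with Ttll11 and Brwd1 (Pearson r of log2 CPM from 0.9965 to 0.9975). Among the most opposite were H2-Q4 (r = -0.9970), an MHC class I gene, and an unnamed locus on chromosome 18 (62204118 to 62206196; -0.9964). Since the libraries form 2 groups that lie far apart for Pdcd1lg2, any locus that differs steadily between the groups has such an r. In deviations from the group means, the closest were XLOC_006687 on chromosome 13 (77847951 to 78305501; r = 0.994), Ubr3 (0.988) and Adam10 (0.984). For Cd274, the FPKM of TCONS_00039555 was followed most closely by isoforms of unnamed loci and of the tetraspanin gene Tspan17, with r from 0.9544 to 0.9785 over 17499 isoforms, and was most opposite to an isoform of Mfn1 (r = -0.9885), a mitochondrial fusion gene, to one of an unnamed locus on chromosome 6 (125095259 to 125111800; -0.9722) and to one of Coq8a (-0.9714). Its closest named isoform in deviations was of Arf1 (0.959). These are descriptions of 8 libraries and carry no test.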

How the data were processed

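RNA of 8 libraries was measured by RNA-seq. Per the labels' protocols, ribosomal RNA was removed from DNase-treated total RNA before TruSeq RNA libraries were prepared; that kit does not mark strand. The submitters' processing notes name mm9, HTSeq, Cufflinks 2.1.1, TopHat2 2.0.9 and CASAVA 1.8.2. Not given in the sources used here are their settings and how reads meeting several loci were counted. As raw counts the authors deposited values for 31020 loci (9940 at 0 in every library) beside FPKM for 89208 transcripts of their merged annotation. All columns matched a library, and 0 were left over. Total counts ran from 23071022 to 27783417 per library; the depth behind an FPKM value is unknown.

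Counts were tested with edgeR 4.0.16 (R 4.3.3; TMM, default filter, quasi-likelihood, two-sided), and FPKM with limma 3.58.1 (variance trend) on log2(FPKM + 0.1) where 4 or more libraries reached an FPKM of 1, each adjusted by Benjamini-Hochberg over all features, with a threshold of 0.05. CPM are counts scaled to the library total. Because the counts of Cd274 were at the floor, FPKM summed per locus were tested the same way, a choice made after seeing the data, and the ratio of the genes was taken from FPKM in place of counts. Exact permutation tests (two-sided, scipy) compared the shares and the ratio. Both procedures were tested on simulated data. The members, the lists and the rule for named genes (the members' isoforms, neighbours, listed genes and the loci most and least correlated with a member; isoforms for Cd274) were chosen with earlier results of these data known; 3 genes under that rule are not reported here, and the list counts leave them out.

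The files pair no ID with a symbol, and 0 IDs occur in the reference tables. A symbol was paired with a locus where the distances to at least 5 neighbouring start sites within 1 Mb were identical in mm9 and in RefSeq's GRCm38.p6 table, and any other placement met at most 2; 15995 of 49997 RefSeq genes were paired, to 15270 loci. No coordinates were converted. A locus may join several genes (441 did).

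The replicate numbers in the labels were checked as pairs: deviations from group means of same-numbered libraries correlated at 0.39, 0.149, 0.228 and 0.179, all above 0.1, so the numbers were taken as pairs, a pairing that comes from these data since the labels do not say what a number shares. Only 6 of the 8 libraries correlated best with the library of their own number in the other group. The main edgeR and limma fits did not use these pairs, which entered them only as the replicate block. Alternatives were other scalings, filters, pseudocounts, DESeq2 1.42.0, the replicate block and left-out libraries.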

Additional observations from a re-analysis of the deposited data

Results flagged for a closer look

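Of 84 groups of 4 libraries examined, 5 held a library far from the others of its group (Dixon's criterion at the 95% level); chance flags about 1 in 20 groups. For Cd274, isoform TCONS_00039553 had 9.539e-06 FPKM in untreated replicate 4 (others at most 8.853e-07), and TCONS_00039554 had 0.1058 FPKM in IL-4 replicate 3 (others at most 0.005523), both trace levels. The neighbouring locus XLOC_013605 had 62.87 CPM in untreated replicate 1, against 80.58 to 82.19 CPM in the other untreated libraries. The Itgam and Itgax locus had 1188 CPM in untreated replicate 1, against 1358 to 1389 CPM. Cd4 had 2.67 CPM in IL-4 replicate 1, against 1.008 to 1.183 CPM in the other IL-4 libraries.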

How the results depend on the processing

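The rise of Pdcd1lg2 counts kept its direction and its call under every alternative run, with log2 fold changes of 5.75 to 6.29 on leaving out 1 library and 5.97 with the replicate block. Cd274 kept its direction everywhere but its call only in part. For TCONS_00039555 the log2 fold change was 0.30 with no filter and 0.26 with quantile normalization, both no longer called. It was 0.22 without both replicate 4 libraries, and 0.24 to 0.36 on leaving out 1 library. Its call held with the replicate block (limma, adjusted p = 0.03262), with a pseudocount of 0.01 or 1 and with an FPKM minimum of 5. For summed Cd274 FPKM the log2 fold change was 0.21 without both replicate 4 libraries and 0.23 to 0.34 on leaving out 1. The summed call held with the block (limma, adjusted p = 0.01335), no filter (0.03944), quantile normalization (0.02664), either pseudocount and the FPKM minimum of 5. The log2 ratio of the genes differed by 6.13 within pairs (replicate block) and 6.18 without both replicate 4 libraries, and by 6.06 to 6.22 on leaving out 1 library; exact permutation tests on so few libraries cannot pass the threshold. When only isoforms past the filter were compared, the share of the short Pdcd1lg2 isoform differed by 48.2 percentage points and that of the long by -48.2. These values mirror each other and are the same test, which then passed the threshold, since fewer isoforms were adjusted over. Both isoforms passed the filter only through the IL-4 libraries. Tested against a 1.5-fold change, 2467 loci were called instead of 7127, and with an FPKM minimum of 5, 4185 isoforms instead of 6712, fewer being tested. Named loci no longer called against 1.5-fold included Rcl1, Ric1, Insl6, XLOC_014013, Plgrkt, A930007I19Rik, the Jak3 locus and Irf1. Those still called included XLOC_013605, Cd276, Icosl and Irf9. The count of neighbours that fell was 0 with RLE factors, no filter or DESeq2 and 0 to 1 on leaving out 1 library. The block ended no other call. Of other loci, none of them called by counts, the log2 fold change turned sign on leaving out 1 library for XLOC_013600 (-0.02 to 0.11), XLOC_014008 (-0.10 to 0.05), XLOC_014223 (-0.34 to 0.07), Tyk2 (-0.12 to 0.04) and Stat6 (-0.01 to 0.07; -0.00056 without both replicate 4 libraries). The log2 fold change of summed Pdcd1lg2 FPKM was 6.28 with a pseudocount of 0.01 and 3.12 with 1, still called. Without an IL-4 library, or without both replicate 4 libraries, the filter kept no Pdcd1lg2 FPKM, so those fits gave no value. The ratio by counts was not run.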
